A study of Homo sapiens with 6 samples.

Results

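The genes described here are 34 human genes of sterol and fatty acid synthesis. They were taken by name from a fixed list of the enzymes of the 2 pathways, their SREBP regulators and a few genes of sterol handling. Of the 34 members, 32 have a row in the single deposited table of 33644 genes, and levels and changes of PMVK and SCD are not analysed here. PMVK and SCD are counted among the promoters described below. The series was designed to compare wild-type HEK293T cells, a human embryonic kidney line, with a derivative of that line in which alt-LAMA3 was knocked out. The labels list 3 wild-type and 3 knockout samples, both cultured in DMEM with serum, without treatment and at day 0. They do not say whether the knockout line is 1 clone or whether samples of a group are separate cultures, so p-values may measure technical spread.

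The table holds a mean level and 1 comparison per gene, with no value for any sample, so that levels by sample are not shown here. Its header does not name the groups: the group with higher expression where a log2 fold change is positive is called the numerator group, the other one the denominator group, and neither is assigned to a genotype. Very low means shared by at least 100 genes took 9 distinct values, of which 3 went with positive, 3 with negative and 3 with zero fold changes, against the 6 labelled samples. A low mean with a zero fold change is what a read in a library outside both compared groups would give, so the table may rest on about 9 libraries of 3 groups. Each mean level and each level per kilobase below may then pool a group that is not part of the comparison, and whether the labelled design applies to the table is not known. Defining markers of the labelled cells were near 0. In the authors' deposited table, 0 of the 10 listed HEK293-line markers reached a mean normalized count of 72.0 (0.0005% of the summed means). NEFL, NEFM and SALL1 were at 0 and NR0B1 was highest at 44.9. These low means were not read as absence, since whether a mean counts all reads of its gene is not known. All 12 T-lymphocyte markers are in the table and 10 reached 72.0, with CD8A at 27074 and CD3E at 13003 in the authors' deposited table. The T-lymphocyte markers CD4, at 1.83, and CD5, at 1.87, did not reach it. Markers of B lymphocytes, myeloid cells, hepatocytes and adipocytes, the last 2 being types with high lipid synthesis, reached it in 0 of 6, 0 of 6, 0 of 5 and 0 of 5 genes. The changes below are therefore between 2 unnamed groups of cells with T-lymphocyte markers, and in bulk RNA a change in the share of cells and a change in RNA per cell cannot be told apart.

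Sterols and fatty acids are both built from cytosolic acetyl-CoA. The mevalonate steps make isoprenyl units, which are joined to squalene, closed to a ring by lanosterol synthase and trimmed to cholesterol, whereas fatty acid synthase makes palmitate, which is then elongated, desaturated and activated to acyl-CoA. Genes of both routes are classical targets of the sterol regulatory element-binding proteins (SREBPs), membrane-bound transcription factors that the escort protein SCAP carries to the Golgi for cleavage when sterols are low and that INSIG proteins retain in the endoplasmic reticulum when sterols are high. SREBP-2 is known mainly for sterol genes and SREBP-1c for fatty acid genes, and lymphocytes raise both routes when they are activated and build membrane.

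SREBPs bind with partners, among them NF-Y, which recognises CCAAT. The promoter stretches below are shown because the printed sterol genes that rose and those that fell both hold this box. They come from the RefSeq promoter table (GRCh38.p14, the same assembly as the files' hg38), 5′ to 3′ on the gene's strand, and hold the stretch before the RefSeq start that no exon of a protein-coding gene in GENCODE 29 covers. The stretches of DHCR7 and ELOVL6 lie inside the gene as GENCODE 29 draws it, between exons and downstream of its outermost start, and the others lie before the gene. Capitals mark CCAAT on either strand (read as ATTGG on the other) and, in SREBF2, also the sterol regulatory element TCACNCCAC. MSMO1 (chr4:165327419-165327622, plus strand), NSDHL (chrX:152830813-152830966, plus) and DHCR7 (chr11:71448436-71448643, minus) rose in the numerator group. HMGCS1 (chr5:43313513-43313662, minus) and LSS (chr21:46228825-46229024, minus) fell, as did ELOVL6 (chr4:110198677-110198841, minus) of the fatty acid branch, and SREBF2 (chr22:41832855-41833078, plus) encodes SREBP-2.
MSMO1: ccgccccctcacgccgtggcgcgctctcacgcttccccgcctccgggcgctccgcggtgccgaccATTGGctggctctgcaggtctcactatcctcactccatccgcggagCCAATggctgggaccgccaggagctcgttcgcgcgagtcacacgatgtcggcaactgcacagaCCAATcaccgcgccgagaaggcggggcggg
NSDHL: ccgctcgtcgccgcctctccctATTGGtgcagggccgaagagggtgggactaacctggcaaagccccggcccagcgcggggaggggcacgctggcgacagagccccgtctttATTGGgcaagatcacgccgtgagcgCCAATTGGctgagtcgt
DHCR7: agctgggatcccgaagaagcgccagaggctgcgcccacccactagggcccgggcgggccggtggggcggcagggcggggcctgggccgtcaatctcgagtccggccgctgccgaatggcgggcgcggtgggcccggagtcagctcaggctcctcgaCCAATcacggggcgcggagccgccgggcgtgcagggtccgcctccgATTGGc
HMGCS1: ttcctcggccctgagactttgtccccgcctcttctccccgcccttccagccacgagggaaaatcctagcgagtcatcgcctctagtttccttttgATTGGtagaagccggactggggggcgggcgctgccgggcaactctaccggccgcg
LSS: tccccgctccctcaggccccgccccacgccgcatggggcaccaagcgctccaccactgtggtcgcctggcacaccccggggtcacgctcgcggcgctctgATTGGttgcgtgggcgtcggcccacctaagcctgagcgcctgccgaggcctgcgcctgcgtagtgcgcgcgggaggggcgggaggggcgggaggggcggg
ELOVL6: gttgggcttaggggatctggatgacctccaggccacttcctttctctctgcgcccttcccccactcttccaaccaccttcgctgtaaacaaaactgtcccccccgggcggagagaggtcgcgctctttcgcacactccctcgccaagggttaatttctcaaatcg
SREBF2: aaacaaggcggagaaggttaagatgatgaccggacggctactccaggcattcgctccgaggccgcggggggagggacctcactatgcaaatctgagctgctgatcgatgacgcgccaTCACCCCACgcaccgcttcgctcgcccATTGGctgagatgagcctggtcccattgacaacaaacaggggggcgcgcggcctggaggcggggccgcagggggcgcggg

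MSMO1 holds 3 and NSDHL 4 such boxes in the stretch shown, of which 2 in NSDHL overlap on opposite strands, and DHCR7 holds 2. HMGCS1 and LSS each hold 1, and ELOVL6 holds 0. The stretches differ in length and the genes shown were picked, so these counts do not compare genes that rose with genes that fell. In the whole window of the start listed first, HMGCS1 holds 2, as DHCR7 does, LSS 1, MSMO1 4 and NSDHL 5. Of other sterol genes that rose, SC5D holds 1 there and IDI1 0. Over the full 300 bases, from 250 before to 50 after the start and over every listed start of a gene, CCAAT was present in 13 of 15 sterol branch genes (86.7%) and 6 of 9 fatty acid branch genes (66.7%). The share was 39.7% over 27305 genes with a promoter and 45.1% over 6625 of them with a mean of at least 72.0. Since any listed start counts, genes with more starts have more chances to match, and the shares were not adjusted for this. ACACA, FADS2 and ACSL1 of the fatty acid branch, and IDI1 of the sterol branch, held CCAAT only at starts listed after the first. The 66.7% was therefore not read as an excess over all genes. Within the 250 bases before the start, the fatty acid branch had 5 of 9 (55.6%) and the sterol branch again 13 of 15. TCACNCCAC, searched on both strands like the others, occurred in SREBF2 and at 1 of 5 starts of ACSL1, and in 1.39% of all genes with a promoter. Sterol regulatory elements with other letters were not searched, so a gene without this string may still hold one. GGGCGG, the GC box of Sp1, was present in 29 of 30 members with a promoter, against 77.3% of the genes with a mean of at least 72.0. CACGTG, the E-box, was present in 4 of 30 members and 12.9% of those genes. Promoters of FDFT1, SQLE, ACAT2 and FASN are not printed or counted. A match describes letters in a window and is not evidence of binding.

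**Figure D1:**
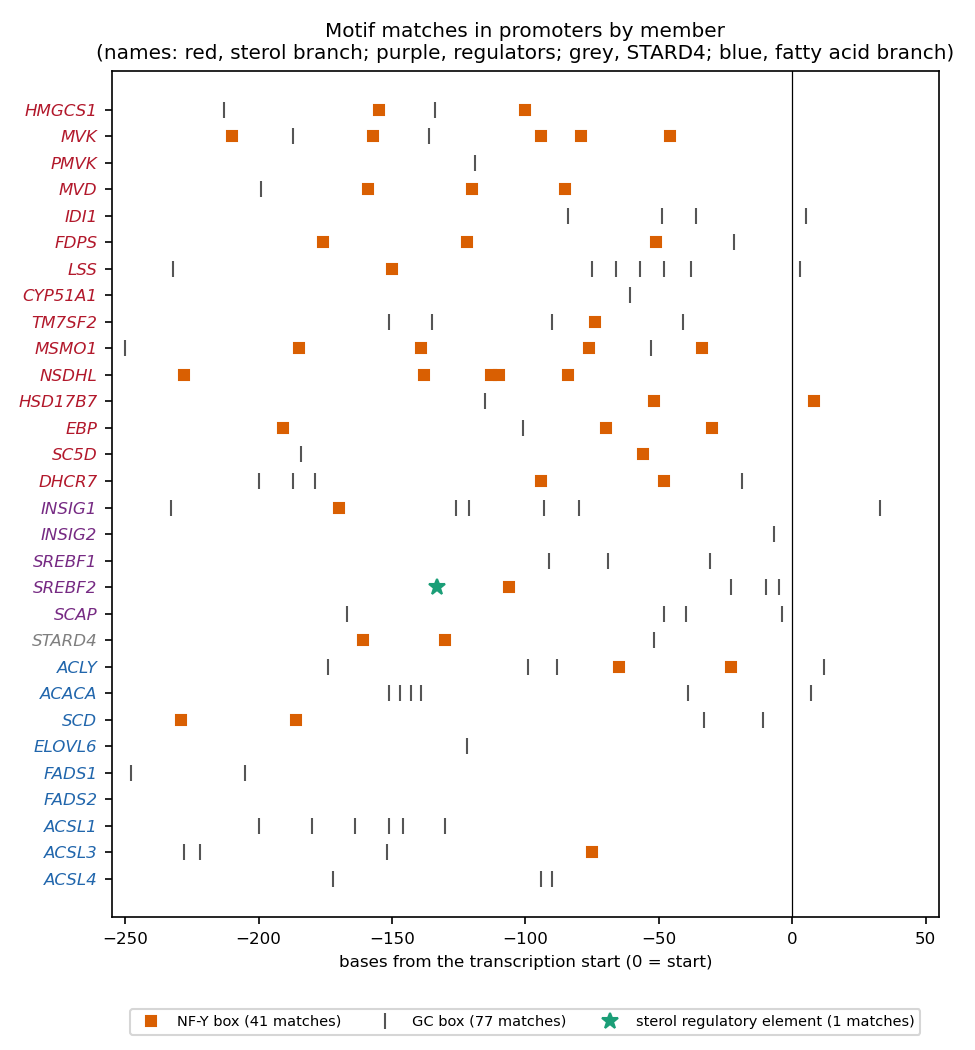
Positions of motif matches in the promoter listed first for each of 30 members, in bases from the transcription start (x axis). NF-Y boxes (orange squares) crowd into the sterol branch (red names), where IDI1, PMVK and CYP51A1 have none at the start drawn. An exact match to TCACNCCAC, drawn as the sterol regulatory element (green star), appears for SREBF2, and grey ticks are GC boxes.

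The sterol branch was mostly higher in the numerator group, whereas the fatty acid branch was split. Of the 16 sterol enzymes measured, 9 rose, 2 fell (HMGCS1 and LSS) and 5 did not pass the threshold of an adjusted p of 0.05. Of the 9 fatty acid genes measured, 2 rose (FADS1 and FADS2), 2 fell (ELOVL6 and ACSL4) and 5 did not pass. The median log2 fold change was 0.37 in the sterol branch and -0.027 in the fatty acid branch, against 0 over all 13957 genes tested, and the difference between the branches was not tested, since genes are not replicates. Over all 32 members, 14 rose and 4 fell. The background is 29.5% of all tested genes called, 14.7% higher and 14.8% lower, and 42.6% among the 8312 genes with a mean of at least 72.0, 21.0% higher and 21.6% lower. Of the 32 members, 30 have such a mean, FASN and ACACA being the exceptions. The fatty acid branch, with 4 of 9 called, lay close to the 42.6%, so its count is not a result about the branch. The changes were modest: SQLE was the one member beyond 2-fold among those past the threshold, and against a 1.5-fold change 0 of 32 members passed. When each error was multiplied by the spread of the test statistics over all genes, 5 calls were left: MVK, IDI1, FDPS and DHCR7 higher and ELOVL6 lower.

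**Figure D2:**
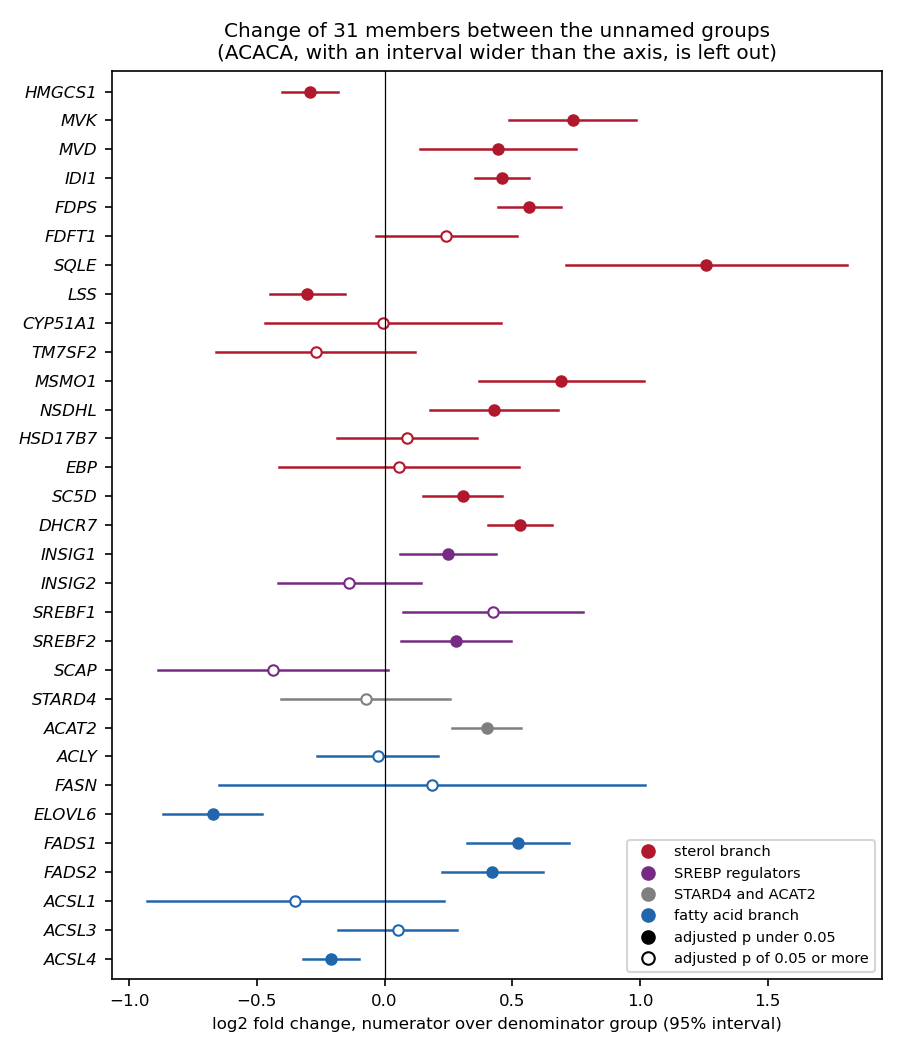
Log2 fold change (x axis, numerator over denominator group) with its 95% interval for 31 members in pathway order; filled points passed an adjusted p of 0.05. Most red points (sterol branch) lie to the right of 0 with HMGCS1 and LSS to the left, while the blue points (fatty acid branch) lie on both sides, from ELOVL6 at -0.67 to FADS1 at 0.52.

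The mevalonate steps changed in all 5 enzymes measured, 4 up and the first one down. Each of the 5 has a mean of at least 72.0, a range in which 42.6% of tested genes were called, 21.0% higher and 21.6% lower. HMGCS1, the synthase that makes HMG-CoA and opens the route, had a mean normalized count of 6469 and a log2 fold change of -0.29 (adjusted p = 2.29e-06, SE 0.06) in the authors' deposited table, which is 0.817 of the denominator level (95% interval 0.757 to 0.882). It was thus the most abundant sterol enzyme by mean normalized count, and fell while the steps after it rose. MVK, the kinase that phosphorylates mevalonate, was at 0.74 (adjusted p = 7.65e-08, SE 0.13) with a mean of 357 in the authors' deposited table, a 1.67-fold rise (1.40 to 1.98). MVD, the decarboxylase that yields isopentenyl diphosphate, was at 0.44 (adjusted p = 0.0178, SE 0.16) and a mean of 282 in the authors' deposited table. IDI1, which isomerises that unit, had a mean of 5030 and a log2 fold change of 0.46 (adjusted p = 3.74e-16, SE 0.05) in the authors' deposited table. The deposited values for FDPS, which joins the units to farnesyl diphosphate, were a mean of 5676 and 0.57 (adjusted p = 4.06e-18, SE 0.06) in the authors' deposited table, the smallest adjusted p of any member. The 95% interval of HMGCS1 (-0.40 to -0.18) did not overlap that of FDPS (0.44 to 0.69), a gene of similar mean. MVK shares 306 exon bases with MMAB on the opposite strand, and MMAB was at 0.67 in the authors' deposited table. Whether the counting used strand is not given in the sources used here, so part of the MVK reads could belong to MMAB. Antisense transcripts that are not analysed here cover 18.6% of the exon bases of FDPS, 15.0% of HMGCS1 and 14.8% of IDI1.

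From squalene to cholesterol, 5 of 11 enzymes rose, 1 fell and 5 did not pass. All 11 have a mean of at least 72.0, a range in which 21.0% of tested genes were higher, 21.6% lower and 42.6% called. With 6 of 11 called, not far from that last share, the count was not read as a result about this stretch. SQLE, the epoxidase that adds oxygen to squalene, had the largest change of all members past the threshold: a log2 fold change of 1.26 (adjusted p = 5.49e-05, SE 0.28) at a mean of 213 in the authors' deposited table, or 2.40-fold (95% interval 1.64 to 3.51). Its error was large for its level, since 16.9% of 1748 genes with a mean within 1.5-fold had a larger one. LSS, the cyclase that acts next and makes lanosterol, went the other way, at -0.30 (adjusted p = 0.000336, SE 0.08) with a mean of 993 in the authors' deposited table. MSMO1, an oxidase that removes methyl groups at carbon C-4, was at 0.69 (adjusted p = 0.000172, SE 0.16), and NSDHL, the dehydrogenase that works with it, at 0.43 (adjusted p = 0.00397, SE 0.13), both in the authors' deposited table. SC5D, a desaturase of the sterol ring, was at 0.31 (adjusted p = 0.000691, SE 0.08) in the authors' deposited table. DHCR7, which reduces the last ring double bond on the way to cholesterol, had a mean of 1244 and rose by 0.53 (adjusted p = 2.30e-15, SE 0.06) in the authors' deposited table, and 93.0% of 1501 genes of like mean had a larger error. The rises thus included enzymes at the start, middle and end of this stretch.

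The 5 enzymes without a call were not shown to be unchanged. FDFT1, squalene synthase, had a log2 fold change of 0.24 (adjusted p = 0.202, 95% interval -0.03 to 0.52), and the demethylase CYP51A1 one of -0.01 (adjusted p = 0.992, interval -0.47 to 0.46), both in the authors' deposited table. The reductase TM7SF2 was at -0.27 (interval -0.66 to 0.12), HSD17B7 at 0.09 (-0.19 to 0.36) and the isomerase EBP at 0.06 (-0.41 to 0.52) in the authors' deposited table. Each interval allows a change as large as that of SC5D in at least 1 direction. Counting limits apply to some of them: 79.4% of the exon bases of CYP51A1 also belong to a gene model on the same strand, AC000120.2, that is not analysed here. HSD17B7 has a copy, HSD17B7P2, listed at a mean of 93.5 beside 443 for HSD17B7 itself in the authors' deposited table. FDPS has 8 named pseudogenes in the table, with means of at most 4.68 in the authors' deposited table.

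Among the regulators, 2 of 5 rose and 0 fell. All 5 had means above 72.0, a range in which 42.6% of tested genes were called. With 2 of 5 called, close to that share, the count is not a result about the regulators. SREBF2, which encodes SREBP-2, was at 0.28 (adjusted p = 0.0377, SE 0.11) with a mean of 728, and INSIG1, the sterol-dependent anchor and itself an SREBP target, at 0.25 (adjusted p = 0.0370, SE 0.10) with a mean of 959, both in the authors' deposited table. Neither kept its call when adjusted over every gene with a p-value (adjusted p = 0.0570 and 0.0559). SREBF1, which encodes SREBP-1, missed the threshold with a larger estimate of 0.42 (adjusted p = 0.0600, SE 0.18) in the authors' deposited table. It passed when adjusted over the genes with a mean of at least 72.0 (adjusted p = 0.0419). The calls for these 3 genes thus sit at the threshold. SCAP was at -0.44 (adjusted p = 0.152, SE 0.23) and INSIG2, the second anchor, at -0.14 (adjusted p = 0.545, SE 0.14) in the authors' deposited table. SREBF1 and SREBF2 overlapped in their 95% intervals (0.07 to 0.78 and 0.07 to 0.49), as did INSIG1 and INSIG2 (0.06 to 0.44 and -0.42 to 0.14). Transcript levels of these regulators do not measure SREBP cleavage.

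The 2 genes outside both branches differed. ACAT2, the cytosolic thiolase that makes the acetoacetyl-CoA used by HMGCS1, had a mean of 3492 and rose by 0.40 (adjusted p = 8.72e-08, SE 0.07) in the authors' deposited table. It shares 397 exon bases with TCP1 and 1141 with SOD2 on the opposite strand, of which TCP1 was at 0.20 in the authors' deposited table and SOD2 is not analysed here. STARD4, a carrier of cholesterol between membranes, was at -0.07 (adjusted p = 0.816, SE 0.17) with a mean of 573 in the authors' deposited table.

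In the fatty acid branch the 3 enzymes that make palmitate did not pass, and the changes lay in the steps that modify or activate the chain. ACLY, which splits citrate to supply acetyl-CoA, had a mean of 4417 and a log2 fold change of -0.03 (adjusted p = 0.911) in the authors' deposited table. Its 95% interval of -0.26 to 0.21 bounds the change to between 0.833-fold and 1.16-fold, although 1.97% of 661 genes of like mean had a larger error than its 0.12. FASN, the synthase, was at 0.19 (adjusted p = 0.818, SE 0.43) with a mean of 56.8 in the authors' deposited table, and ACACA, the carboxylase that makes malonyl-CoA, at -2.07 (adjusted p = 0.762, SE 3.77) with a mean of 10.5. The error of ACACA exceeded that of nearly all genes of like mean (0.555% of 1262 had a larger one), and its 95% interval of -9.46 to 5.31 spans falls and rises of many fold. Its direction cannot be read.

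ELOVL6, the elongase that extends palmitate, had the largest fall of the members past the threshold: -0.67 (adjusted p = 1.43e-10, SE 0.10) at a mean of 1530 in the authors' deposited table, or 0.627 of the denominator level (95% interval 0.549 to 0.717). FADS1 and FADS2, the front-end desaturases that make polyunsaturated fatty acids, rose together. FADS1 was at 0.52 (adjusted p = 2.50e-06, SE 0.10) with a mean of 3045 and FADS2 at 0.42 (adjusted p = 0.000185, SE 0.10) with a mean of 1438 in the authors' deposited table. They are neighbours on opposite strands of chromosome 11 (61799625 to 61829318 and 61792980 to 61867354, GRCh38) and share 490 exon bases, so without strand-specific counting their values are not fully separate. ACSL4, an acyl-CoA synthetase known for arachidonic acid, was the most abundant member by mean normalized count, at 11084, and fell by 0.21 (adjusted p = 0.00122, SE 0.06) in the authors' deposited table. The related ACSL3 was at 0.05 (adjusted p = 0.819, SE 0.12) and ACSL1 at -0.35 (adjusted p = 0.433, SE 0.30) in the authors' deposited table. The interval of ACSL1 (-0.93 to 0.23) held both the estimate for ACSL4 and that for ACSL3.

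Levels set per kilobase of exon length, over all libraries of the table, spanned 0.808 for ACACA to 1728 for ACSL4, in mean normalized counts per kilobase. The order at the top was ACSL4 at 1728, FDPS at 1526, HMGCS1 at 1376, IDI1 at 1158, ACLY at 847 and ACAT2 at 812, all derived from the authors' deposited table. These 6 lay above at least 95.8% of tested genes on this scale. Below a gap came DHCR7 at 299 and FADS1 at 298, and the other members lay below them, down to ACSL1 at 40.6 and SCAP at 30.0, with FASN and ACACA last. The sterol branch had a median of 149 and the fatty acid branch one of 130. The median was 34.6 for all tested genes and 104 for those with a mean of at least 72.0, which most members have. The order of the branch medians turned with the longest transcript as the length (203 and 237). Within the sterol branch the mevalonate enzymes were split, with FDPS, HMGCS1 and IDI1 far above MVD at 59.7 and MVK at 55.1. SQLE, the member that rose most, had the lowest level of its branch at 49.5. Spread between libraries is not given, so neighbours in this order were not compared.

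**Figure D3:**
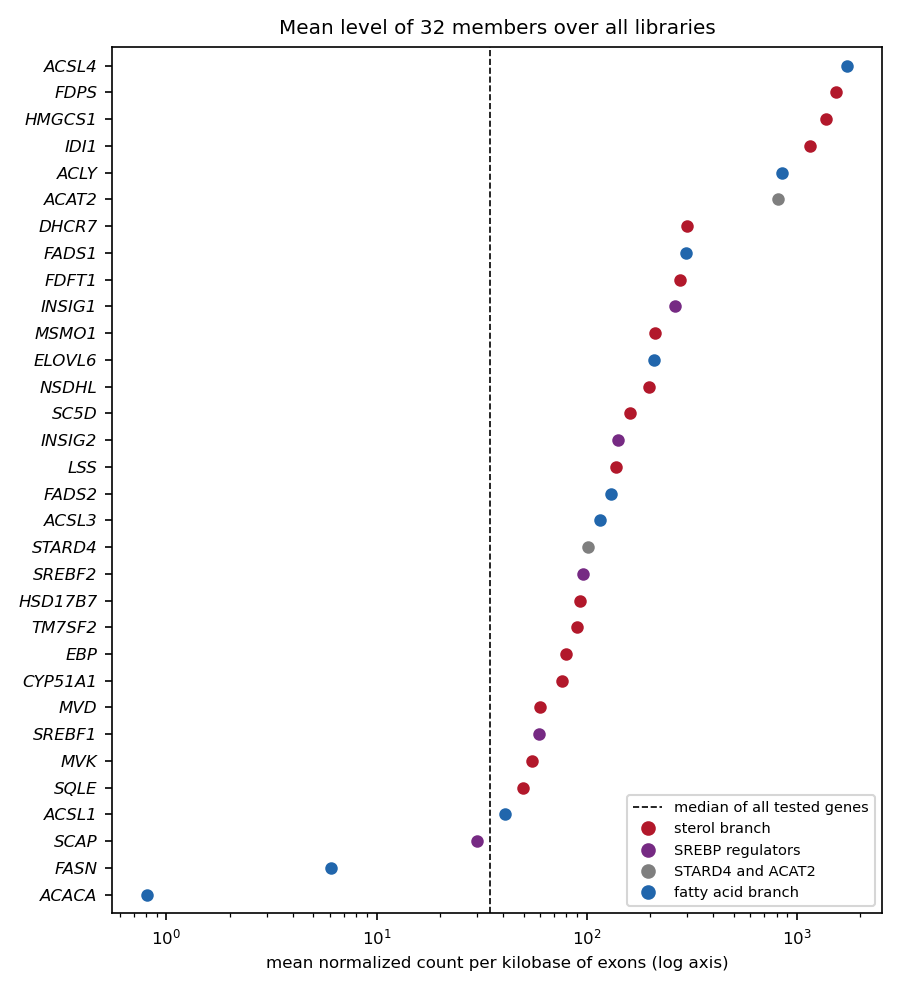
Mean normalized count per kilobase of exons (x axis, log scale) of the 32 members measured, in order of level. The 6 highest, ACSL4 to ACAT2, stand apart from the rest, and ACACA and FASN lie far below the dashed median of all tested genes (34.6).

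FASN and ACACA were exceptional in level: FASN stood at 6.07 and ACACA at 0.808 per kilobase, above 23.8% and 3.83% of tested genes. ACLY, which feeds the same route, stood above 96.1%. Low values of other genes that most cells use also occur in the table, with HADHA, a subunit of the mitochondrial enzyme of fatty acid oxidation, at a mean of 0.791 and AGPAT1, an acyltransferase of phospholipid synthesis, listed at 0 in the authors' deposited table. Whether a mean counts all reads of its gene is not known, so the low values of FASN and ACACA were not read as low expression.

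**Figure D4:**
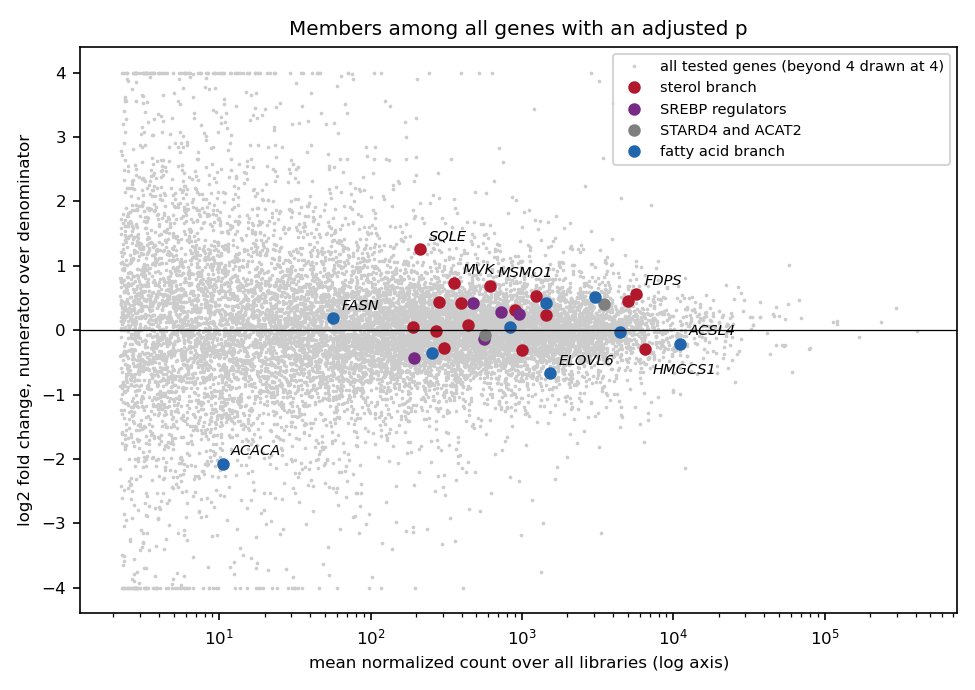
Log2 fold change (y axis) against mean normalized count (x axis, log scale) for all 13957 genes with an adjusted p (grey) and the 32 members (coloured by branch). Members with a mean above 100 lie between -0.67 (ELOVL6) and 1.26 (SQLE), within the grey cloud, and ACACA stands at -2.07 with a mean of 10.5. Changes beyond 4 are drawn at 4.

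Genes that process SREBPs or sense sterols, beyond the members, passed in 1 of 12 upward and 3 downward, with a median log2 fold change of -0.013, against 14.7% and 14.8% of all tested genes. With 4 of 12 called, close to the 29.5% of all tested genes, the count is not a result about the list. RNF145, an ER ubiquitin ligase of the sterol response, was at -0.48 (SE 0.05), MBTPS1, the site-1 protease that cuts SREBPs, at -0.43 (SE 0.16), and ERLIN2, an ER membrane protein of sterol-regulated degradation, at 0.79 (SE 0.21), each in the authors' deposited table. The third that fell was PAQR3, a Golgi protein, at -0.32 in the authors' deposited table. The site-2 protease MBTPS2 was at -0.06 (adjusted p = 0.961, SE 0.59) with a mean of 23.3 in the authors' deposited table. The side branches that leave the mevalonate route for prenyl groups, dolichol and ubiquinone had 1 of 12 tested genes higher and 0 lower, with a median of -0.14, fewer calls than the 29.5% of all tested genes. That gene was GGPS1, which makes geranylgeranyl diphosphate from the FDPS product, at 0.48 (adjusted p = 1.24e-08, SE 0.08) in the authors' deposited table.

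Other genes of fatty acid synthesis and elongation had 3 of 19 tested genes higher and 2 lower, with a median of -0.10. That is close to the 29.5% called among all tested genes, so the count is not a result about the list. ACSL5, another acyl-CoA synthetase, was at -0.71 (adjusted p = 1.71e-33, SE 0.06) with a mean of 2102, and ACSL6 at -2.40 (SE 0.66) with a mean of 38.4 in the authors' deposited table. Together with ACSL4, 3 of the 5 ACSL genes measured fell and 0 rose, against 14.8% lower and 14.7% higher of all tested genes. Since ACSL6 was added with its value known, this count is not a result about the family. ELOVL5, the elongase of polyunsaturated chains, rose by 0.38 (SE 0.10), whereas ELOVL6 had fallen, and ELOVL1 was at -0.33 (adjusted p = 0.425, SE 0.28) in the authors' deposited table. HSD17B12, the ketoacyl reductase of elongation, was at 0.63 (SE 0.25) and MECR, of mitochondrial fatty acid synthesis, at 0.40 (SE 0.13) in the authors' deposited table. ELOVL5, ACSL6 and PAQR3 were named after their values were seen.

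Most proliferation markers rose, as most of the sterol branch did, whereas most T-lymphocyte markers fell. Of 14 proliferation markers, 11 rose and 0 fell, with a median log2 fold change of 0.62, and MKI67 was at 0.70 and CDK1 at 0.85 in the authors' deposited table. Of 12 T-lymphocyte markers, 8 of 10 tested fell and 0 rose, and the 10 log2 fold changes ran from -1.94 (PTPRC) to -0.27 (CD2, without a call) in the authors' deposited table. The background is 14.7% higher and 14.8% lower of all tested genes. Among those with a mean of at least 72.0 it is 21.0% higher and 21.6% lower. Markers of other cell types, all at low means, moved in both directions. In the authors' deposited table, NR0B1 of the HEK293 list was at 5.46 (adjusted p = 2.96e-15) with a mean of 44.9, and the myeloid receptor CSF1R at 4.20 (adjusted p = 3.74e-07) with a mean of 20.7. LYZ, a myeloid lysozyme, was at -6.02 with a mean of 4.06, and of the B-lymphocyte list BLK was at 1.89 with a mean of 16.5 and CD79B at -2.37 with a mean of 26.8 in the authors' deposited table. Of the genes tested, the HEK293 list had 1 of 2 higher, the myeloid list 1 of 4 higher and 1 lower, and the B-lymphocyte list 1 of 3 higher and 1 lower. The summed means of these lists were 53.8, 33.8 and 48.9. The summed means were 41806 for the proliferation list and 66833 for the T-lymphocyte list, and sums by group are not known. The part of any of these in the changes of the members was not tested.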

How the data were processed

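Per the labels' protocols, RNA was turned into sequencing libraries with a SMARTer mRNA-seq kit. The submitters' processing notes list hg38, STAR and Salmon but give neither their roles nor versions. What program made the table and with what model is not given in the sources used here. Its column names per the file headers match those of DESeq2's Wald test. The deposited baseMean is a mean normalized count, used as a signal over all libraries. The deposited fold changes and standard errors are log2 values, the deposited statistic is a score (fold change over error), and the deposited p-value and adjusted p are those used for calls, two-sided.

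Genes were matched by Ensembl ID without version to symbols (33483 of 33644) and to GENCODE 29 on GRCh38 (33582), from which exon lengths and overlaps were taken; 28 of 32 members had the same version. The 95% intervals assume normal errors around the estimate and cover the error that the deposited fit gave. Library depths cannot be read from the table. Adjusted p-values refer to all 13957 genes that have one (lowest mean 2.22). Alternatives changed the filter, the gene set adjusted over, the null hypothesis, the errors (widened 2.03 times, the median absolute deviation of all statistics) and the centring. The adjustment and tests were checked on simulated data. The planned fits on values per sample were not run, since the table holds none. Every member is named, and of each other list up to 3 genes past the threshold with the largest change and a mean of at least 72.0. Some genes of the other lists are not reported here and were left out of their counts. Members and lists were chosen with earlier results of these data known. Python 3.11.15, numpy 2.4.6, pandas 2.3.3, scipy 1.17.1 and matplotlib 3.10.9 were used.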

Additional observations from a re-analysis of the deposited data

How the results depend on the processing

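No paired analysis was possible because the table holds no value per sample; leaving out replicates, a count model and other normalizations were not run for the same reason. Of 32 members, 13 kept their side of the threshold under all of the 6 alternatives that gave a value, each of them without a call in the deposited test. None of them could turn the sign of a called member, since all but the centring leave the fold changes as they are and its shift is smaller than any called change. Tested against a 1.5-fold change, the counts fell to 0 higher and 0 lower among members, in both branches, and to 3 higher and 0 lower in the other lists (14 and 19 as deposited). With widened errors they fell to 4 higher and 1 lower among members (4 and 0 in the sterol branch, 0 and 1 in the fatty acid branch) and to 7 and 4 in the other lists. With widened errors MVK stood at an adjusted p of 0.0496, ACAT2 at 0.0508 and SQLE at 0.204. Centring on the median of genes with a mean of at least 72.0 (a shift of -0.011) moved the branch medians from 0.37 to 0.38 (sterol) and from -0.027 to -0.016 (fatty acid). With the longest transcript as the length, the median levels per kilobase were 203 (sterol) and 237 (fatty acid). Before the start, 55.6% of fatty acid branch genes held CCAAT at any of their listed starts. The depth is unknown, and by the deposited errors the 95% intervals of SREBF1, SCAP, TM7SF2, ACSL1, FASN and ACACA, which had no call, reach past a 1.5-fold change. The spread used to widen errors includes real differences between the groups.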

Other observations

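Routes that use or export the products were also measured. Genes of glycerolipid and phospholipid synthesis had 6 of 18 tested genes lower and 0 higher, with a median log2 fold change of -0.35, against 14.8% of all tested genes lower and 14.7% higher. Both directions together, the 6 of 18 called are close to the 29.5% of all tested genes. Of the 18, 14 have a mean of at least 72.0, a range in which 21.6% of tested genes were lower and 42.6% called. PTDSS1, which makes phosphatidylserine, was at -0.50 (SE 0.05, adjusted p = 1.97e-20) with a mean of 6286, CDS2, of phosphatidylinositol synthesis, at -0.48 (SE 0.12), and LPIN2, a phosphatidate phosphatase, at -0.44 (SE 0.08) in the authors' deposited table. Fatty acid oxidation had 7 of 19 tested genes higher and 3 lower, with a median of 0.19. Of these genes 17 have a mean of at least 72.0, a range in which 21.0% of tested genes were higher and 21.6% lower. With 10 of 19 called, not far from the 42.6% called in that range, the count was not read as a result about the list. HADH, of the short-chain mitochondrial spiral, was at 0.86 (SE 0.08, adjusted p = 2.41e-28) and ECI1, an enoyl-CoA isomerase, at 0.50 (SE 0.13), while ACAA1, the peroxisomal thiolase, was at -0.70 (SE 0.10) in the authors' deposited table.

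LXR targets and efflux genes had 2 of 6 tested genes lower and 0 higher. That is close to the 29.5% of all tested genes called, so the count is not a result about the list. ABCA7, a lipid transporter, was at -0.72 (SE 0.14) and the transporter ABCG1 at -1.08 (SE 0.28) with a mean of 56.2 in the authors' deposited table, while ABCA1 stood at a mean of 0.673 and was not tested. Sterol uptake, transport and storage had 2 of 16 tested genes higher and 3 lower, which is close to that background and not a result about the list. The lipoprotein receptors VLDLR, at 1.98 (SE 0.21, adjusted p = 8.19e-19), and SCARB1, at 0.99 (SE 0.09, adjusted p = 2.36e-25), were the 2 that rose in the authors' deposited table, and VLDLR exceeded the estimate of every sterol enzyme. SOAT1, which esterifies cholesterol for storage, was at -0.48 (SE 0.13), GRAMD1B, a sterol transporter between membranes, at -0.46 (SE 0.10) and STARD3 at -0.31 (SE 0.12) in the authors' deposited table. ABCG1, GRAMD1B and STARD3 were named after their values were seen.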
